A study of Mus musculus with 6 samples.

Results

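Matrix metalloproteinases (MMPs) and their tissue inhibitors (TIMPs) are described here in cultured fibroblasts of mouse embryos (MEFs), a primary culture of mostly connective tissue cells. The set held 10 genes, 7 proteinase genes (Mmp2, Mmp3, Mmp9, Mmp10, Mmp13, Mmp14 and Mmp19) and 3 inhibitor genes (Timp1, Timp2 and Timp3), out of 19938 genes named on the array. They were chosen by symbol, with earlier results of these data known. Each was read by 1 transcript cluster, the group of probes that stands for a gene on this array. All 10 had a mean above log2 5.081, the level that 90% of olfactory and vomeronasal receptor genes did not reach, so all 10 were among the 15462 genes tested.

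Transcripts were measured on 6 Affymetrix arrays, 1 for each of 3 Rb1+/+ and 3 Rb1L/L cultures. Both groups were MEFs from E13.5 embryos, grown in the same serum-containing medium to passage 4 and lysed while proliferating, with no treatment named. Rb1 encodes the retinoblastoma protein pRb, and Rb1L/L cells carry on both alleles a form whose binding cleft for proteins with an LXCXE motif is known to be altered; Rb1+/+ cells carry the normal gene. The allele is present in every cell of the culture, and the labels number the cultures without saying that each came from an embryo of its own. Where 2 cultures of a group shared an embryo, the p-values would measure a technical spread.

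MMPs are zinc-dependent enzymes that cut collagens, proteoglycans and other proteins of the extracellular matrix. Most are secreted as inactive proenzymes and are switched on when a propeptide is removed by another proteinase, and TIMPs bind the active site and block it. Fibroblasts are a main source of both, and many MMP genes are known to respond to growth factors and cytokines through AP-1, a Fos and Jun dimer that binds the promoter. Values below are transcript levels and say nothing of enzyme activity.

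Mmp13, Mmp3 and Mmp10 lie in 1 cluster of MMP genes on chromosome 9, and the 250 bases before their annotated starts are printed in that gene order because Mmp3 had the largest change of the set and the other 2 are members of the same cluster, neither of which passed the main test. The sequences and coordinates are those of RefSeq on GRCm38.p6, all on the plus strand, at chr9:7272264-7272513 for Mmp13, chr9:7445572-7445821 for Mmp3 and chr9:7502092-7502341 for Mmp10. Capitals mark the AP-1 motif TGAGTCA, or TGACTCA where it lies on the other strand, and the TATA box motif TATAAA.
Mmp13: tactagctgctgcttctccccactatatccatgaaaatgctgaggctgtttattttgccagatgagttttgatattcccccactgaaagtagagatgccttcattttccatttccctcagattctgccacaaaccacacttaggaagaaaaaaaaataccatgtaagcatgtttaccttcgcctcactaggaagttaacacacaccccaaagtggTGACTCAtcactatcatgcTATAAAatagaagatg
Mmp3: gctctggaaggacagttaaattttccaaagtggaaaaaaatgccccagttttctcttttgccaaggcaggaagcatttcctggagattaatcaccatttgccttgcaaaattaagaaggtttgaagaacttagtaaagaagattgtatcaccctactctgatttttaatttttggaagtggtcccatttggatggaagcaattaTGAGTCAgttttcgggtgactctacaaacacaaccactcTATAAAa
Mmp10: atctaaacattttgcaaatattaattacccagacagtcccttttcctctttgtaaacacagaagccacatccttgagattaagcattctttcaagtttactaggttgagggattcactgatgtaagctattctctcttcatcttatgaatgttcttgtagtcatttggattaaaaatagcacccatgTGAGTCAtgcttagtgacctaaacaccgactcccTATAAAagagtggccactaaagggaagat

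The RefSeq promoter table held 7 of the 10 genes, and Mmp2, Mmp9 and Mmp19 were not matched. The AP-1 motif was found in 3 of the 7, the 3 printed here, against 4.45% of 32536 promoter windows of the same length, and the TATA box motif in the same 3 against 12.3%. In Mmp3 the AP-1 motif began 46 bases before the annotated start, in Mmp10 63 bases and, on the opposite strand, in Mmp13 35 bases before it. The motifs of 2 further families were searched, and all motifs on both strands. AGGAAG, bound by ETS factors of the PEA3 group, was found in 5 of the 7 (Mmp3, Mmp13, Mmp14, Timp1 and Timp3) against 29.6% of all windows. GCGGGAA, an E2F motif, was found in Timp2 alone of the 7 against 3.84%. These are matches of letters, which do not show that a factor binds there.

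Between the genotypes, Mmp3 and Mmp9 were higher in Rb1L/L cultures and Mmp19 and Timp3 were lower. The other 6 genes did not pass the threshold, an adjusted p under 0.05 in limma after Benjamini-Hochberg adjustment across the 15462 genes. Thus 4 of 10 were called, 2 higher and 2 lower, where 12.2% of all tested genes were called, 7.1% higher and 5.08% lower. In 8 of the 10 the arrays of the 2 genotypes did not overlap, against 34.5% of all tested genes, and in the same number the unadjusted p was under 0.05, against 28.7%. The median size of the log2 change, regardless of sign, was 0.28 over the 10 genes and 0.10 over all tested genes, and the median signed change was -0.05 and -0.02. Because the 10 genes were chosen with earlier results of these data known, these shares and medians are no independent test of the set. Of the 11 other tested MMP genes, 9.09% were called. Log2 changes are Rb1L/L minus Rb1+/+ throughout, with the moderated standard error (SE).

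**Figure D1:**
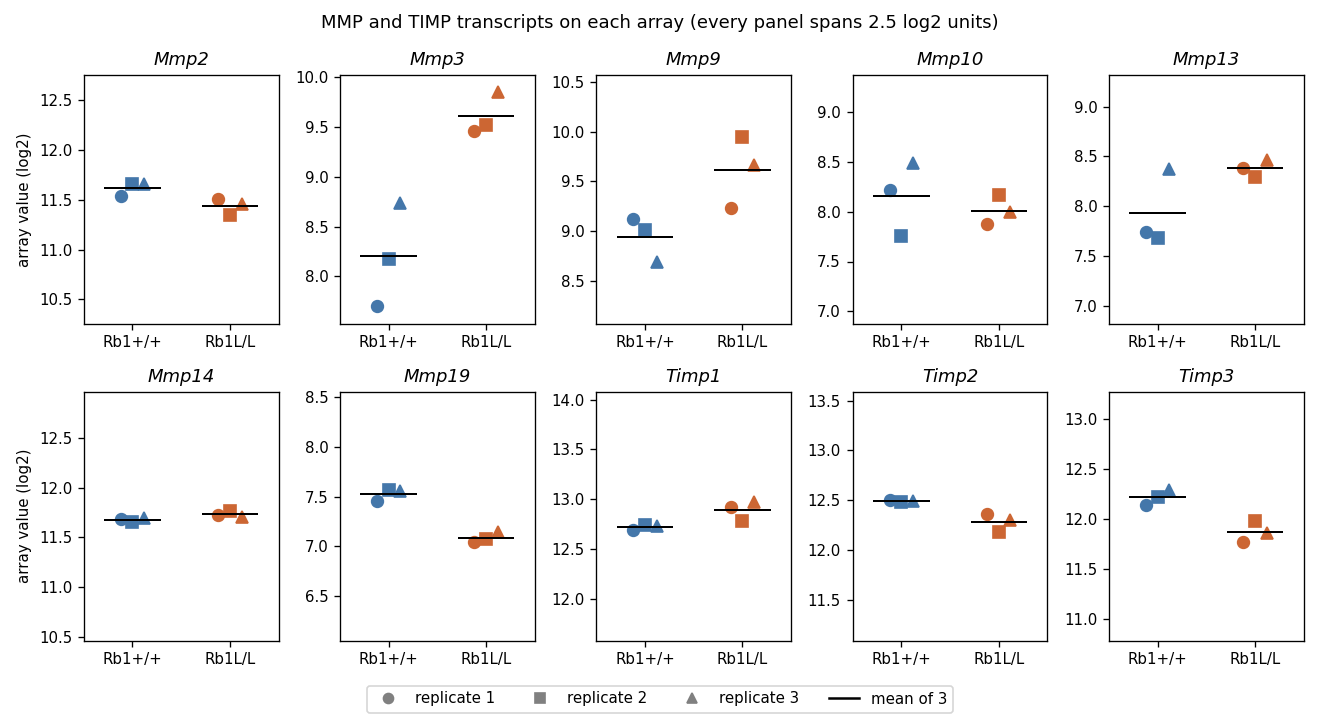
Array value (log2) of each of the 10 genes in the 3 Rb1+/+ and 3 Rb1L/L cultures, with a symbol for each replicate number and a line at the mean; all panels span the same log2 range. Mmp3 rises from a mean of 8.21 to 9.61, and the arrays of the genotypes overlap only for Mmp10 and Mmp13.

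Among the stromelysins, which cut proteoglycans and activate other proMMPs, Mmp3 had the largest change of the set. It measured log2 7.70, 8.18 and 8.74 in Rb1+/+ replicates 1, 2 and 3 and 9.46, 9.52 and 9.85 in the Rb1L/L replicates. All Rb1L/L arrays lay above all Rb1+/+ arrays, and the Rb1+/+ arrays were spread more widely (SD 0.52, n = 3) than the Rb1L/L arrays (SD 0.21, n = 3). The rise was 2.64-fold (log2 1.40 ± 0.23 SE, limma adjusted p = 0.0106), and 27 of the 1098 genes called higher rose more. Same-numbered arrays differed by 1.75, 1.34 and 1.12 in pairs 1, 2 and 3. With the replicate number as a block the SE fell to 0.11 (adjusted p = 0.00174). The rise passed in each of the 6 fits that left out 1 array (log2 1.15 to 1.67), and it missed the threshold when both arrays numbered 1 (adjusted p = 0.0707) or both numbered 2 (adjusted p = 0.0637) were left out.

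Mmp10, the other stromelysin gene of the set and a near neighbour of Mmp3 on the chromosome, did not pass. It measured 8.22, 7.76 and 8.49 in Rb1+/+ and 7.88, 8.17 and 8.0 in Rb1L/L cultures, so the genotypes overlapped. The difference was -0.14 ± 0.17 (SE; adjusted p = 0.614), with a 95% confidence interval from -0.53 to 0.24. It had no steady direction, at -0.34 and -0.50 in pairs 1 and 3 and 0.41 in pair 2, and it was 0.02 without Rb1+/+ replicate 3.

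Mmp13 encodes collagenase-3, which cuts fibrillar collagen. Its values were 7.74, 7.68 and 8.37 in Rb1+/+ and 8.38, 8.29 and 8.46 in Rb1L/L cultures. Rb1+/+ replicate 3 lay among the Rb1L/L arrays, while the other 2 Rb1+/+ arrays lay below all of them. The difference of 0.45 ± 0.17 (SE) missed the threshold (limma adjusted p = 0.117), while the fit with the replicate block called it (SE 0.11, adjusted p = 0.0412). It also passed without Rb1+/+ replicate 3, at 0.67 ± 0.07 (SE; adjusted p = 0.00866), and without both arrays numbered 3 (0.63, adjusted p = 0.0293). These were the only 3 of 17 alternatives in which Mmp13 passed. The other fits without 1 array gave adjusted p from 0.186 to 0.289. Leaving out both arrays numbered 1 or 2 gave adjusted p of 0.43 and 0.322. The pairs differed by 0.64, 0.61 and 0.09. Rb1+/+ replicate 3 held the highest Rb1+/+ value of each of the 3 members on chromosome 9.

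The chromosome 9 cluster holds 10 MMP genes in the RefSeq order Mmp13, Mmp12, Mmp1b, Mmp3, Mmp1a, Mmp10, Mmp8, Mmp27, Mmp20 and Mmp7, with 3 other genes between them. All 10 were on the array, 6 were tested and 1, Mmp3, was called. Mmp1b and Mmp1a, the neighbours on either side of Mmp3, stayed under the floor of log2 5.081, with means of 3.81 and 4.79 in Rb1+/+ and 3.67 and 4.81 in Rb1L/L cultures. Mmp8 and Mmp27 had means under the floor as well. Mmp12, known as macrophage elastase, differed by 0.11 ± 0.19 (SE; adjusted p = 0.756), and its 3 pairs by -0.40, 0.74 and -0.02. Mmp20 (-0.02 ± 0.07, adjusted p = 0.873) and Mmp7 (0.01 ± 0.12, adjusted p = 0.970) lay within the spread of their arrays. Whether Mmp3 differed from its neighbours in response was not tested.

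**Figure D2:**
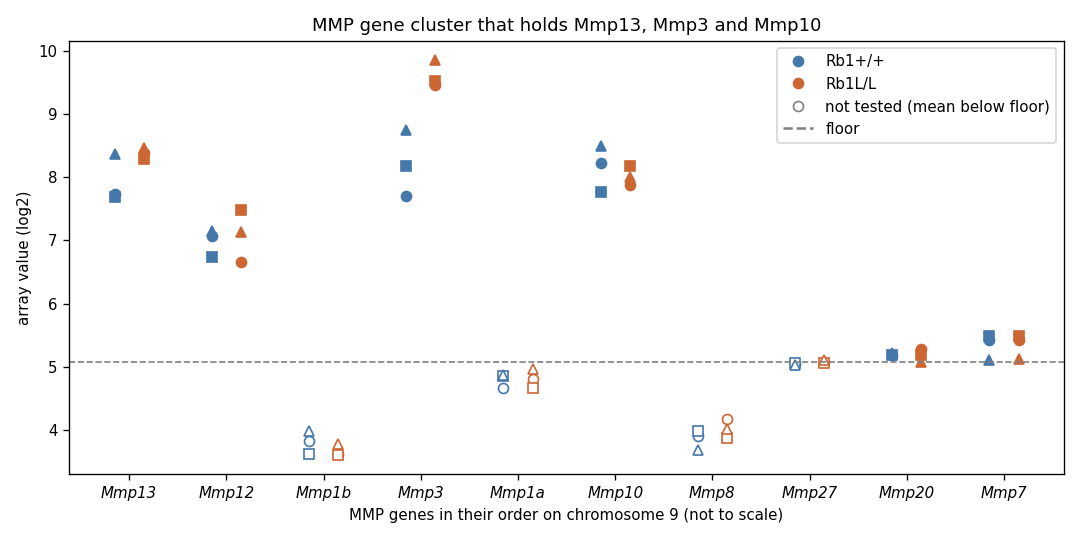
Array value (log2) of the 10 MMP genes of the chromosome 9 cluster in gene order, Rb1+/+ in blue and Rb1L/L in orange, with symbols for replicates 1 (circle), 2 (square) and 3 (triangle); open symbols mark genes whose mean lay below the dashed floor of 5.081. Mmp3 is the gene whose genotypes separate, between Mmp1b and Mmp1a below the floor.

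Of the gelatinases, which degrade denatured collagen and basement membrane, Mmp9 was called and Mmp2 was not; the difference between their changes was not tested. Mmp9, gelatinase B, measured 9.12, 9.01 and 8.69 in Rb1+/+ and 9.23, 9.95 and 9.66 in Rb1L/L cultures. The groups did not overlap, but Rb1L/L replicate 1 lay only just above the highest Rb1+/+ array. Mmp9 rose 1.59-fold (log2 0.67 ± 0.18 SE, limma adjusted p = 0.0452), and the pairs differed by 0.11, 0.94 and 0.96. Under the alternatives tried, this call was lost more often than the other 3. It failed after quantile normalization (adjusted p = 0.0543), with no filter on low values (0.0507), with trended variances (0.0608) and with array weights (0.0801). It was also lost without Rb1+/+ replicate 1 (0.0762), 2 (0.0781) or 3 (0.122) and without Rb1L/L replicate 2 (0.114) or 3 (0.106), though not without Rb1L/L replicate 1 (log2 0.86, 0.0239). Leaving out both arrays numbered 1, 2 or 3 gave log2 0.95, 0.54 and 0.53, none of which passed (adjusted p = 0.0613, 0.151 and 0.223).

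Mmp9 is also known from macrophages and osteoclasts, so markers of these cells are given beside it. Of 15 tested macrophage markers 3 rose (Adgre1 by 0.95, Cd14 by 0.35 and C1qa by 0.34), Cx3cr1 fell by 0.34 and 11 did not pass. The share called was 26.7%, against 12.2% of all tested genes. Their median change was 0.27, against -0.02 over all tested genes. Without Rb1+/+ replicate 1 the adjusted p was 0.0654 for Adgre1 and 0.056 for Cd14, without Rb1+/+ replicate 2 it was 0.0571 for Adgre1, and without Rb1L/L replicate 2 it was 0.0585 for Cd14; of the 6 fits that left out 1 array, 5 lost C1qa and 5 lost Cx3cr1. Adgre1, a macrophage surface receptor gene, was at 6.11, 5.72 and 6.25 in Rb1+/+ and at 6.73, 7.44 and 6.73 in Rb1L/L cultures. Both Adgre1 and Mmp9 were highest in Rb1L/L replicate 2. In Rb1+/+ replicate 3 Adgre1 had its highest Rb1+/+ value (6.25) and Mmp9 its lowest (8.69). In Rb1L/L replicates 1 and 3 Adgre1 was at 6.73 in both, and Mmp9 was at 9.23 and 9.66. The summed linear level of the 16 markers on the array ran from 2680 to 4290 over Rb1+/+ arrays. Over Rb1L/L arrays it ran from 3120 to 4560, so the ranges overlapped. The brightest marker, Lyz2 (log2 10.09 to 10.97), weighs most in this sum, which does not measure the amount of macrophages. The 11 markers that did not pass included Fcgr1 (0.35, limma adjusted p = 0.0505), Tyrobp (0.34), Itgam (0.33), Cd68 (0.30), C1qc (0.27) and Csf1r (0.18). The rest of them were Lyz2 (0.17), C1qb (0.11), Mmp12 (0.11), Ptprc (0.10) and Mrc1 (-0.04). Aif1 lay below the floor. The part of these cells in the Mmp9 result was not tested, and in whole cultures more cells of a type cannot be told apart from more RNA per cell. Of 7 osteoclast markers, 3 (Calcr, Dcstamp and Atp6v0d2) lay below the floor and none of the other 4 was called by limma; at an unadjusted p under 0.05, 1 rose and 1 fell, and with the replicate block 1, Ctsk, fell (adjusted p = 0.0498).

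Mmp2, gelatinase A, had values of 11.54, 11.66 and 11.66 in Rb1+/+ and 11.51, 11.35 and 11.46 in Rb1L/L cultures. The Rb1L/L arrays were all below the Rb1+/+ arrays, by as little as 0.03 in pair 1. The difference of -0.18 ± 0.07 (SE) missed the threshold (adjusted p = 0.12, or 0.142 with the replicate block).

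Mmp14 encodes a membrane-anchored MMP that activates proMMP2 at the cell surface. It measured 11.69, 11.66 and 11.70 in Rb1+/+ and 11.73, 11.77 and 11.71 in Rb1L/L cultures. The groups did not overlap, yet the difference of 0.05 ± 0.05 (SE; adjusted p = 0.568) was small, with a 95% confidence interval from -0.07 to 0.17.

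Mmp19, a secreted MMP with a broad range of matrix substrates, was the proteinase gene that fell. Its values were 7.46, 7.57 and 7.56 in Rb1+/+ and 7.04, 7.07 and 7.15 in Rb1L/L cultures. The groups stood clear of each other and each was tight (SD 0.063 and 0.056, n = 3). Mmp19 fell by 0.44 on the log2 scale (SE 0.06, limma adjusted p = 0.00573), which makes Rb1+/+ 1.36-fold higher. The pairs agreed closely, at -0.42, -0.50 and -0.41. The fall passed in each of the 6 fits without 1 array and missed the threshold without both arrays numbered 1 (adjusted p = 0.0717) or both numbered 2 (adjusted p = 0.0576). Of the 785 genes called lower, 127 fell more.

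**Figure D3:**
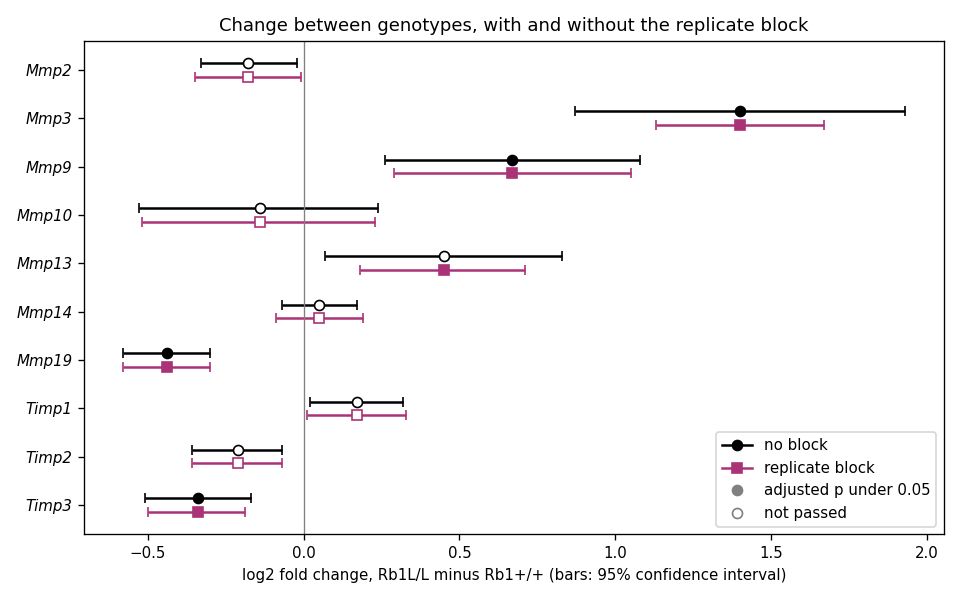
Log2 fold change (Rb1L/L minus Rb1+/+) of each gene with its 95% confidence interval from limma, without (circles) and with (squares) the replicate number as a block; filled symbols had an adjusted p under 0.05. Mmp3, Mmp9, Mmp19 and Timp3 are filled in both fits, and Mmp13 only with the block (adjusted p = 0.0412).

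Of the 3 inhibitors, Timp3 fell and Timp1 and Timp2 did not pass. Timp3, which binds to the matrix and also inhibits proteinases of the ADAM and ADAMTS families, measured 12.14, 12.22 and 12.29 in Rb1+/+ and 11.77, 11.98 and 11.86 in Rb1L/L cultures. All Rb1L/L arrays were below all Rb1+/+ arrays. Timp3 fell by 0.34 on the log2 scale (SE 0.07, limma adjusted p = 0.0241), and the pairs differed by -0.37, -0.23 and -0.43. Leaving out Rb1+/+ replicate 2 (adjusted p = 0.0536) or 3 (0.0691) or Rb1L/L replicate 1 (0.0843) or 3 (0.0612) lost the call, with changes between -0.34 and -0.29. It was also lost without both arrays numbered 1 (0.129), 2 (0.0667) or 3 (0.133).

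Timp2, which inhibits MMPs and, together with Mmp14, helps to activate proMMP2, was lower in the Rb1L/L arrays but did not pass. It measured 12.50, 12.48 and 12.49 in Rb1+/+ and 12.36, 12.18 and 12.30 in Rb1L/L cultures. The groups did not overlap, and the Rb1+/+ arrays were nearly equal (SD 0.014, n = 3). The difference was -0.21 ± 0.06 (SE; adjusted p = 0.0644, 0.0645 with the replicate block), and it passed with trended variances (adjusted p = 0.0222).

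Timp1, the inhibitor whose gene lies on the X chromosome, did not pass and had a difference above 0. It measured 12.69, 12.74 and 12.73 in Rb1+/+ and 12.92, 12.78 and 12.97 in Rb1L/L cultures. The groups did not overlap, with the smallest gap in pair 2 (0.04). The difference was 0.17 ± 0.07 (SE; adjusted p = 0.13). Xist, the RNA of the inactive X, was at log2 5.13 and 4.79 in the arrays numbered 1 and between 11.44 and 11.61 in the other 4, and the Y-linked Eif2s3y was high in those same 2 arrays, so each genotype held 1 culture of male type with the same number.

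**Figure D4:**
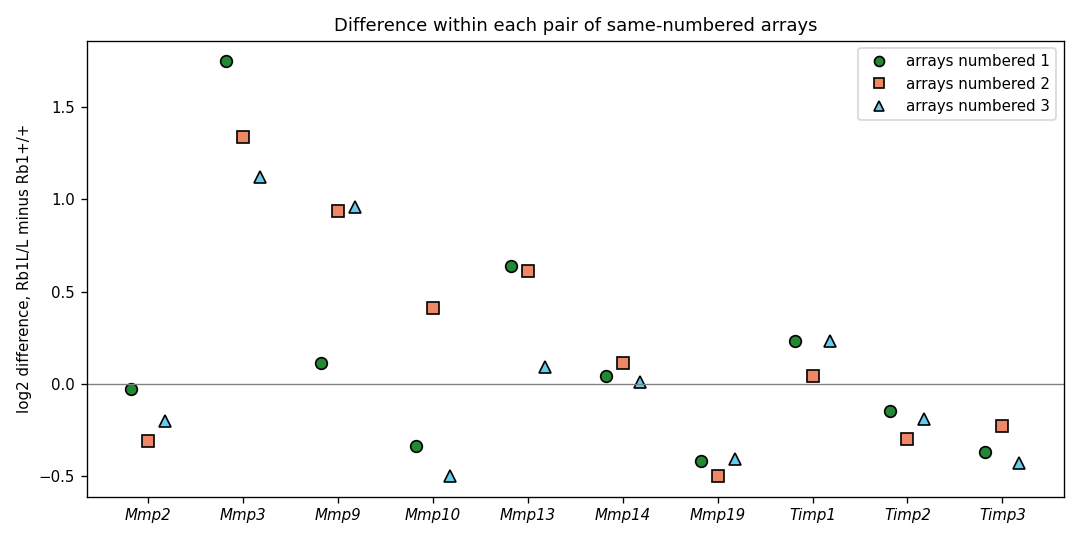
Log2 difference between the Rb1L/L and the Rb1+/+ array of the same number, for each gene and each of the 3 pairs. The pairs have one sign for 9 of the 10 genes, and Mmp10 has both; the Mmp9 difference is 0.11 in pair 1 and 0.94 and 0.96 in the others.

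Within pairs, 9 of the 10 genes had the same sign of difference in all 3 pairs, against 52.3% of all tested genes. For the 8 genes whose groups did not overlap, the common sign follows from that and adds nothing. Only Mmp10 and Mmp13 could have gone either way. Since same-numbered arrays deviated from their group means together, the block removed part of the spread. With it 5 members were called, 3 higher and 2 lower, against 14.4% of all tested genes (7.99% higher and 6.45% lower). The directions of the 10 genes were the same after median centring and after quantile normalization.

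Genes that act with this set were listed by role. Over all tested genes 12.2% were called, and 28.7% had an unadjusted p under 0.05 in limma. The share called was 9.09% for other MMPs, 11.1% for genes listed as other inhibitors and 3.85% for ADAM and ADAMTS genes. It was 23.8% for proMMP activation and the plasminogen system and 4.76% for AP-1, ETS and NF-kB genes. Inducing ligands and receptors stood at 8.0% and matrix substrates at 11.5%. Of 11 other tested MMP genes, Mmp23 rose and none fell (unadjusted p under 0.05 in 2 that were higher and 1 that was lower). Mmp23, which encodes an MMP held in the membrane before it is released, was at 8.25, 8.22 and 8.14 in Rb1+/+ and at 9.17, 8.77 and 8.95 in Rb1L/L cultures. It rose 1.69-fold (log2 0.76 ± 0.10 SE, limma adjusted p = 0.00477), a call held without any 1 array. Mmp1a, Mmp1b, Mmp8 and Mmp27 were not tested.

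Of 9 tested genes listed as other inhibitors, Reck fell and none rose. At an unadjusted p under 0.05, 1 was higher, Cst3 (0.14), which is a cystatin gene and not an MMP inhibitor. The list also held Pcolce and Pcolce2, which are not inhibitor genes. Reck encodes a membrane-anchored inhibitor of MMPs. It was at 8.49, 8.44 and 8.65 in Rb1+/+ and at 8.07, 8.18 and 8.20 in Rb1L/L cultures, so the groups did not overlap. Reck fell by 0.38 (SE 0.07, adjusted p = 0.0178), and the call was lost without Rb1L/L replicate 1 (0.0652) or 2 (0.0539). Of 26 ADAM and ADAMTS genes, relatives of the MMPs, Adamts12 fell by 0.42 (SE 0.08, adjusted p = 0.0185; 0.0618 without Rb1+/+ replicate 1, 0.0578 without Rb1L/L replicate 2 and 0.0516 without Rb1L/L replicate 3) and none rose (1 at an unadjusted p under 0.05). With the replicate block Adam23 rose as well (0.40, adjusted p = 0.0115).

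Of 21 genes of proMMP activation and the plasminogen system, 4 rose and 1 fell, with a median of -0.07; at an unadjusted p under 0.05, 4 were higher and 7 were lower. Plaur, the receptor that gathers urokinase at the cell surface, barely varied within a genotype. Its 3 Rb1+/+ values were 10.41, 10.40 and 10.45, its Rb1L/L values 10.78, 10.76 and 10.76, and the rise was 0.35 ± 0.05 (SE; adjusted p = 0.00748). St14, the membrane serine proteinase matriptase, rose by 0.47 (adjusted p = 0.0182; 0.0617 and 0.0543 without Rb1L/L replicate 1 and 2). Pcsk6, a proprotein convertase, rose by 0.32 (adjusted p = 0.017; 0.0644 without Rb1L/L replicate 1). The tetraspanin gene Tspan12 rose by 0.27 (adjusted p = 0.0304), a call lost without any 1 of the 6 arrays (0.0539 to 0.109). Cldn1, a tight junction gene, fell by 0.81 (adjusted p = 0.00842). With the block 4 rose and 4 fell, Pcsk5 (-0.35, adjusted p = 0.0243) among those added.

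Of 21 AP-1, ETS and NF-kB genes, Etv4 rose and none fell, with a median of 0.07; at an unadjusted p under 0.05, 7 were higher and 1 was lower. Etv4 encodes an ETS factor of the PEA3 group and was at 8.03, 8.07 and 8.07 in Rb1+/+ and at 8.44, 8.60 and 8.62 in Rb1L/L cultures. The rise was 0.50 ± 0.07 (SE; adjusted p = 0.00492). Jun, a subunit of AP-1, measured 10.86, 10.85 and 10.72 against 11.18, 11.18 and 10.91; its difference of 0.28 ± 0.09 passed with the replicate block (adjusted p = 0.0294) and not without it (0.0723). With the block Etv1 fell too (-0.24, adjusted p = 0.0474). Fos (0.21 ± 0.07, adjusted p = 0.0895) and Fosl1 (0.14 ± 0.07, adjusted p = 0.201) did not pass. Adam23, Pcsk5, Jun, Etv1, Fos, Fosl1, Cst3, Lif, Dcn and the cell type markers given singly were chosen after their values were seen.

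Of 25 inducing ligands and receptors, Tgfb2 and Fgf2 fell and none rose (1 at an unadjusted p under 0.05). With the replicate block Lif rose (0.32, limma adjusted p = 0.0291). Tgfb2, a transforming growth factor, fell by 0.63 (SE 0.09, adjusted p = 0.0055). Fgf2, a fibroblast growth factor, fell by 0.33 (SE 0.09, adjusted p = 0.0436), and its call was lost without Rb1+/+ replicate 1 (0.12) or 3 (0.113) and without Rb1L/L replicate 1 (0.119), 2 (0.135) or 3 (0.0555). Il1a, Il1b, Il6 and Osm, cytokines known to induce MMPs, had means below the floor and were not tested. Il1a was at 4.25, 4.01 and 4.08 in Rb1+/+ and at 4.40, 5.08 and 4.59 in Rb1L/L cultures. The genotypes overlapped for Il1b, Il6 and Osm (differences of 0.30, 0.09 and 0.08), and Il1b was at 5.25 in Rb1L/L replicate 2.

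Of 26 matrix substrate genes, 3 fell and none rose, a share of 11.5% against 12.2% of all tested genes. At an unadjusted p under 0.05, 8 were lower and none was higher, where 28.7% of all tested genes passed in either direction. The median was -0.12. With the replicate block Dcn fell as well (-0.31, limma adjusted p = 0.0346). Col3a1, a fibrillar collagen gene, fell by 0.33 (SE 0.05, adjusted p = 0.0112), from 9.04, 8.98 and 9.0 to 8.67, 8.65 and 8.72. The basement membrane genes Nid1 and Lama2 fell by 0.29 (adjusted p = 0.0215) and 0.35 (adjusted p = 0.0422). The Nid1 call was lost without Rb1+/+ replicate 1 (0.0607) or Rb1L/L replicate 1 (0.0637), 2 (0.0775) or 3 (0.0539), and the Lama2 call without any 1 of the 6 arrays (0.052 to 0.131).

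As a check of the labels, all 14 fibroblast markers lay above the floor. Col1a1 lay between 12.38 and 12.73, Fn1 between 13.16 and 13.45 and Thy1 between 12.34 and 12.55 on all arrays. Of the 14 markers 1, Col3a1, was called, and with the replicate block Dcn fell too (limma adjusted p = 0.0346). Markers of other cells were mixed in level. The epithelial markers Epcam and Grhl2 and the endothelial marker Pecam1 had means below the floor, whereas Krt18 (8.11 to 8.50), Krt8 (7.36 to 7.62), Flt1 (10.11 to 10.67), Emcn (7.42 to 8.83) and Kdr (7.11 to 7.90) lay well above it on all arrays. None of 9 chondrocyte, 3 osteoblast, 4 neutrophil and mast cell, 6 epithelial or 7 skeletal muscle markers tested was called by limma, with or without the block (unadjusted p under 0.05 in 2 chondrocyte and 2 muscle markers, all lower), and of 7 endothelial markers Kdr rose by 0.58 (adjusted p = 0.00663). Rb1 itself had a mean of 8.83 (SD 0.19, n = 3) in Rb1+/+ arrays and of 8.93 (SD 0.072, n = 3) in Rb1L/L arrays, a level that cannot check the genotype because the L allele gives a transcript too. The arrays correlated at 0.9948 to 0.996 within and at 0.9873 to 0.9927 between genotypes.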

How the data were processed

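The authors deposited log2 values per transcript cluster, made with RMA; Partek is the other tool named, per the submitters' processing notes, and versions, settings and genome build: not given in the sources used here. An RMA fit puts all arrays onto one distribution and compresses the folds of dim genes, and levels of different genes cannot be compared. An array has no read depth; the number of arrays limits the precision.

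The platform annotation gave 1 gene symbol to 21789 of 35556 clusters (21698 found in the reference gene table), several to 1621 and none to 12146. The brightest cluster stood for a gene. The main test was limma (version 3.58.1, R 4.3.3; lmFit, eBayes) without a block, over genes with a mean above the 90th percentile of 1194 receptor genes of smell and the vomeronasal organ, with Benjamini-Hochberg adjustment and a threshold of 0.05. The procedure was tested on simulated data. The replicate numbers were taken to pair the samples, because the design text speaks of pairs. Within each of the 3 pairs, deviations from the group means correlated (0.30, 0.24 and 0.30). These correlations are not independent, because deviations within a group of 3 arrays cancel out. Both arrays numbered 1 were of male type, and the part of sex in these correlations was not tested. Alternatives covered the block, scaling, filter, clusters per gene, moderation, array weights and left-out arrays. From each list of related genes, those past the threshold were named, up to 6 by smallest p. Members and lists were chosen with earlier results of these data known.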

Additional observations from a re-analysis of the deposited data

How the results depend on the processing

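In the 8 alternatives that kept all arrays, the changes of Mmp3, Mmp19 and Timp3 passed the threshold each time, and no direction of the 10 genes turned. The count of members called stayed between 3 and 5. With the replicate block 2 ADAM and ADAMTS genes, 8 genes of proMMP activation and the plasminogen system and 3 AP-1, ETS and NF-kB genes were called (1, 5 and 1 without it). The block also called 3 inducing ligands and receptors and 4 matrix substrate genes (2 and 3 without it). Among the members the block changed no call other than that of Mmp13. With trended variances 2 other MMP genes, 3 ADAM and ADAMTS genes, 9 activation genes, 3 AP-1, ETS and NF-kB genes and 5 matrix substrate genes were called. Quantile normalization and array weights each called 2 other MMP genes and 2 AP-1, ETS and NF-kB genes, median centring 2 of the latter, and no filter 1 inducing ligand or receptor gene.

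Leaving out 1 array or both arrays of a number gave 92 to 1441 called genes in place of 1883, and 0 to 3 members called in place of 4. The members called were 2 without Rb1+/+ replicate 2 or Rb1L/L replicate 3 (Mmp3 and Mmp19) and 0 without both arrays numbered 1 or 2, where limma gave an unadjusted p under 0.05 for 6 in either case. Over these fits the count ran from 0 to 2 for other MMP genes and for ADAM and ADAMTS genes, from 0 to 1 for other inhibitors, from 0 to 5 for activation genes, from 0 to 3 for AP-1, ETS and NF-kB genes and for matrix substrates, and from 0 to 2 for inducing ligands and receptors. The difference of Mmp10 ran from -0.42 to 0.03 and turned above 0 without Rb1+/+ replicate 3 (0.02) and without both arrays numbered 3 (0.03). Fits without both arrays of a number hold 2 arrays a group; the cause of the lower counts was otherwise not tested. Changes smaller than the spread of 3 arrays a group cannot be seen here.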
